A study of Drosophila melanogaster and Drosophila simulans and Drosophila yakuba with 12 samples.

Results

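Male white prepupae of Drosophila yakuba were compared with male white prepupae of D. melanogaster in their microRNAs (miRNAs). By their sample labels, 4 of the 12 libraries of the series belong to the comparison, 2 of D. yakuba and 2 of D. melanogaster. Whole animals grown at 25 °C were collected within 1 h after puparium formation. The D. yakuba strain was 14021-0261.00, and its 2 libraries were technical libraries of 1 RNA sample. Library 2 of D. yakuba carried the index TGAC in pool SDY4, and library 1 carried the index CGAT in pool SDY3. The D. melanogaster strain was Oregon-R, with 2 RNA samples. Both of its libraries carried the index TGAC, sample 1 in pool SDY1 and sample 2 in pool SDY3. The index is a run of 4 nt at the end of the 5′ adapter, joined directly to the small RNA. Library 2 of D. yakuba is therefore the library whose index equals that of both D. melanogaster libraries, but no pool held both it and a D. melanogaster library. Male larvae of D. melanogaster (2 samples, at least 18 h before puparium formation) entered the fits to estimate the spread between samples. Their counts also entered the choice of tested arms and the scaling, so some arms were tested mainly on larval reads. Both larval libraries carried the index ACTG, sample 1 in pool SDY1 and sample 2 in pool SDY3.

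Arms were compared where the hairpin was listed for both species. Of 342 mature arms listed for either species, 136 arms of 68 miRNAs met this rule, and 96 of these had a read in at least 1 of the 4 prepupal libraries. Reads on these arms numbered 1422 in D. yakuba library 2, 21723 in D. yakuba library 1, 9403 in D. melanogaster sample 1 and 8427 in D. melanogaster sample 2. A count of 0 allows a share of up to 0.211% in D. yakuba library 2 (3 counts of the total), and of 0.0138% to 0.0356% in the other libraries. Intervals below are exact Clopper-Pearson or exact conditional intervals at the 95% level. They cover counting error only, because PCR reads without molecular identifiers are not independent molecules. D. yakuba was represented by a single RNA, so its p-values rest on the spread between D. melanogaster samples.

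A miRNA is cut from a hairpin precursor, loaded into an Argonaute protein and guided to messenger RNAs mainly by its seed, bases 2 to 8 from its 5′ end. Either strand of the hairpin, the 5p or the 3p arm, can become the mature miRNA. At puparium formation a pulse of the steroid ecdysone starts the replacement of larval tissues by adult ones, and miRNAs such as let-7, miR-14 and miR-34 are known to act with that hormone.

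The most read sequences show how alike the mature miRNAs of both species were. They are given as the D. yakuba and D. melanogaster reads show them, 5′ to 3′, with the seed in capitals. The first set holds abundant arms, or arms among the smallest p-values, whose most read sequence was identical in both species.
miR-263a-5p: aAUGGCACuggaagaauucacggg
miR-282-5p: uAGCCUCUacuaggcuuugucu
miR-10-3p: cAAAUUCGguucuagagagguuu
miR-275-3p: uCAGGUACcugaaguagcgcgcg
miR-11-3p: cAUCACAGucugaguucuugcu
bantam-3p: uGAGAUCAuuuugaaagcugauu
miR-92a-3p: cAUUGCACuugucccggccuau
miR-92b-3p: aAUUGCACuagucccggccu
The last pair shares its seed. The second set holds arms whose most read sequence ended earlier in the summed D. yakuba reads, first the D. yakuba and then the D. melanogaster form.
miR-276a-3p in D. yakuba: uAGGAACUucauaccgugcu
miR-276a-3p in D. melanogaster: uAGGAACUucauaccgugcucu
miR-305-5p in D. yakuba: aUUGUACUucaucaggugc
miR-305-5p in D. melanogaster: aUUGUACUucaucaggugcucu
miR-31b-5p in D. yakuba: uGGCAAGAugucggaauagcu
miR-31b-5p in D. melanogaster: uGGCAAGAugucggaauagcuga

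Of 39 arms whose most read sequence had at least 5 reads in each species, 28 had an identical sequence and 11 a different one. The most read sequences of the 11 differed in length, and the summed D. yakuba reads come mostly from library 1. All 39 had the same seed, and each D. yakuba sequence of these also lay within a D. melanogaster hairpin. Counting the D. yakuba reads on D. melanogaster hairpins instead changed the reads of 2 arms. miR-279-5p lost its only read, and miR-312-3p, of the mir-310 cluster, kept 0 of 1 read in library 2 and 2 of 9 reads in library 1. In the D. melanogaster annotation (BDGP6), the gene of miR-263a lies on the minus strand at 2L:11953410-11953503, in an exon of a long noncoding RNA. The gene of miR-276a lies on the plus strand at 3L:10365228-10365325, also in an exon of a long noncoding RNA, and that of miR-305 on the plus strand at 2L:7425972-7426044, within no other gene of that strand. The gene of miR-92a lies on the plus strand in an intron of jigr1, a protein-coding gene, at 3R:25646506-25646600.

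The index-matched comparison set D. yakuba library 2 against both D. melanogaster samples. miR-8-3p, miR-263a-5p, miR-31a-5p, miR-1-3p and miR-184-3p held most D. yakuba reads. No arm was called higher or lower. By the edgeR quasi-likelihood test with Benjamini-Hochberg adjustment at 0.05, 0 of 49 tested arms (0%) passed, and 0 had an unadjusted p under 0.05. DESeq2 called 0 arms as well, also with 0 at an unadjusted p under 0.05. The smallest unadjusted p was 0.127, and the SE of a log2 difference had a median of 1.69 over arms. The 95% interval of 48 of the 49 arms held a 2-fold difference in at least 1 direction, so differences of that size were not detectable with these samples. miR-5-3p was tested on its larval reads (114 and 6) and had no read in the prepupal libraries. Of the tested arms, 9 had none in D. yakuba library 2.

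**Figure D1:**
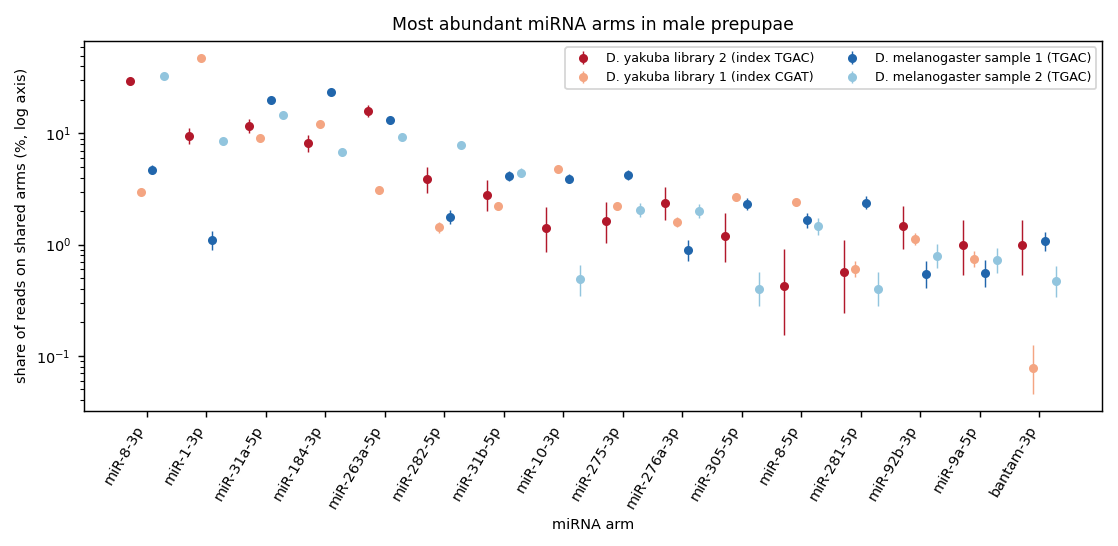
Share of reads on the compared arms (percent, log axis) for the 16 arms with the highest mean share, in D. yakuba libraries 2 and 1 and D. melanogaster samples 1 and 2. Points are single libraries and bars are exact 95% intervals for counting error. miR-8-3p lies at 29.5% and 3.0% in the D. yakuba libraries, against 4.72% and 33.1% in the D. melanogaster samples.

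D. yakuba library 2 lay between the D. melanogaster samples for 4 of the 10 arms with the highest mean share. It lay above both for 3 and below both for 3. miR-8-3p, which acts in fat body insulin signalling, took 29.5% of reads in D. yakuba library 2 (interval 27.2 to 32.0%), against 4.72% and 33.1% in the D. melanogaster samples. miR-1-3p, the muscle miRNA, took 9.49% in D. yakuba library 2, against 1.11% and 8.5% in the D. melanogaster samples. For both arms the D. yakuba library sat next to D. melanogaster sample 2 and far from sample 1. The share of miR-1-3p was 1.12 times that of sample 2 (interval 0.923 to 1.34) and 8.58 times that of sample 1 (6.6 to 11.2). Its fitted log2 difference, D. yakuba minus D. melanogaster, was 1.30 ± 1.40 (SE; edgeR adjusted p = 1), and without D. melanogaster sample 1 it was -0.30.

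miR-184-3p took 8.23% in D. yakuba library 2, against 23.6% and 6.85% in D. melanogaster, between both samples. miR-282-5p took 3.87% in D. yakuba library 2, against 1.78% and 7.92% in D. melanogaster. miR-10-3p, from a gene within the Antennapedia Hox complex, took 1.41%, against 3.93% and 0.487% in D. melanogaster. These values fell between the D. melanogaster samples, which themselves differed by several fold in each.

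Other abundant arms lay outside both D. melanogaster samples. miR-263a-5p, which protects sense organ cells from death, took 16.0% in D. yakuba library 2, against 13.2% and 9.24% in D. melanogaster. Its share was 1.21 times that of sample 1 (interval 1.04 to 1.39) and 1.73 times that of sample 2 (1.48 to 2). miR-31a-5p took 11.7% in D. yakuba library 2, against 20.1% and 14.6% in D. melanogaster. Its ratios were 0.586 (0.497 to 0.686) to sample 1 and 0.803 (0.679 to 0.945) to sample 2. miR-31b-5p took 2.81%, against 4.16% and 4.45% in D. melanogaster, ratios of 0.676 (0.476 to 0.938) and 0.632 (0.444 to 0.877). None of these passed the test over samples. Shares are scaled to library totals alone. With TMM scaling, the fitted log2 differences were 1.032 ± 1.414 for miR-263a-5p, -0.042 ± 1.481 for miR-31a-5p and -0.138 ± 1.435 for miR-31b-5p. The size of the miR-31a-5p and miR-31b-5p differences thus depends on the scaling.

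Over the 49 tested arms, D. yakuba library 2 lay above both D. melanogaster samples for 13 arms (26.5%), between them for 14 and below both for 22 (44.9%). The shallow library gave 0 reads for 9 tested arms, and these can only lie below both samples or equal to a 0.

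The 10 arms with the smallest p were mostly rare in D. yakuba library 2. miR-11-3p, from an intron of the cell cycle gene E2f1, had 5 reads (0.352%) in D. yakuba library 2, against 6 and 8 reads (0.0638% and 0.0949%) in D. melanogaster, with a log2 difference of 2.59 ± 1.69. miR-315-5p, known to raise Wingless signalling, had 3 reads against 5 and 4, a difference of 2.55 ± 1.78. In both arms the D. yakuba share was above both D. melanogaster shares. The ratio of miR-11-3p to sample 2 had an interval of 0.953 to 12.8, and that of miR-315-5p 0.651 to 26.3. When 1 D. melanogaster prepupal sample was left out, the log2 difference of miR-11-3p was 1.42 (without sample 1) and 2.01 (without sample 2), and that of miR-315-5p 1.67 and 1.53. Without a filter on low counts they were 1.25 and 1.20.

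miR-92a-3p had 13 reads (0.914%) in D. yakuba library 2, against 28 and 33 reads (0.298% and 0.392%) in D. melanogaster, a log2 difference of 1.86 ± 1.51. miR-92b-3p had 21 reads (1.48%), against 51 and 67 reads (0.542% and 0.795%) in D. melanogaster, a log2 difference of 1.58 ± 1.40. This family of the shared AUUGCAC seed is known from neural stem cells. Both arms lay above both D. melanogaster samples with counting intervals above 1, although neither passed the test (edgeR adjusted p = 1). Without D. melanogaster sample 1 their log2 differences were 0.76 and 0.43, and without a filter on low counts 0.52 and 0.25.

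miR-7-5p, which acts in photoreceptor formation and on Notch target genes, had 4 reads (0.281%) in D. yakuba library 2, against 20 and 3 reads (0.213% and 0.0356%) in D. melanogaster. The log2 difference was 1.80 ± 1.61, and without D. melanogaster sample 2 it was -0.032. miR-79-3p, from a cluster with mir-9b and mir-9c, had 1 read in D. yakuba library 2, against 111 and 19 reads (1.18% and 0.225%) in D. melanogaster. Its log2 difference was -2.67 ± 2.13. It was -4.48 without D. melanogaster sample 2, -4.03 without a filter on low counts and -1.29 with the replicate number as a block. miR-14-3p, which limits cell death and fat storage, had 1 read against 98 and 1, and its log2 difference of -2.18 ± 2.16 became 2.03 without D. melanogaster sample 1.

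miR-306-5p had 0 reads in D. yakuba library 2, against 37 and 14 in D. melanogaster. At the floor of 3 counts its share was at least 1.87-fold lower than in sample 1, and no bound followed against sample 2. miR-284-3p had 0 reads in D. yakuba library 2, against 8 and 5 in D. melanogaster, which allows no bound.

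**Figure D2:**
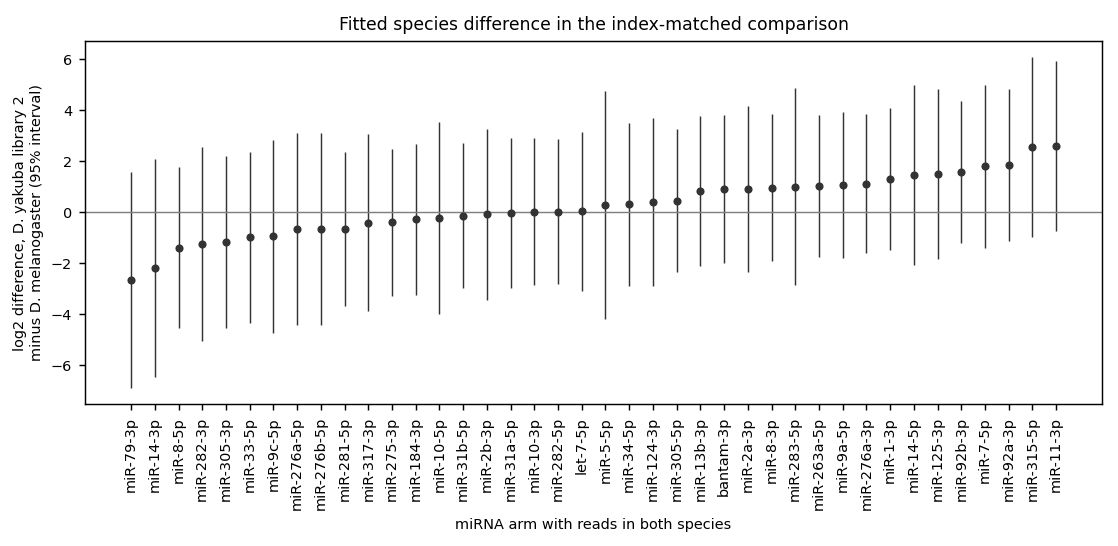
Fitted log2 difference, D. yakuba library 2 minus D. melanogaster, for the tested arms with reads in both species. Points are edgeR estimates and bars are 95% intervals, ordered from low to high. Each interval spans several log2 units, and none of the arms passed at an adjusted p of 0.05.

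The direction of many arms depended on the scaling. The median log2 difference over all tested arms was -0.04 with TMM, -0.30 with RLE, -0.66 with upper-quartile scaling and -0.61 with library totals alone. Medians of lists of related miRNAs are therefore given beside the median of all tested arms.

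For let-7 and miR-125, which share 1 primary transcript with miR-100 and rise with the ecdysone pulse, counts were low. let-7-5p had 8 reads (0.563%) in D. yakuba library 2, against 53 and 77 reads (0.564% and 0.914%) in D. melanogaster. miR-125-3p had 4 reads, against 20 and 7 in D. melanogaster, and miR-125-5p had 1 read, against 10 and 1. In the let-7 complex, 2 of the 6 arms were tested and 0 were called. Their median log2 difference was 0.77, and it lay 0.81 to 0.88 above the median of all arms over the scalings. Of the wider list of ecdysone-linked arms, 9 were tested and 0 called, with a median of 0.04. The list took 35.6% of reads in D. yakuba library 2, against 11.5% and 44.1% in D. melanogaster. Of these, miR-8-3p alone took 29.5%, against 4.72% and 33.1%. miR-34-5p, known from ageing and from the ecdysone response, had 4 reads (0.281%), against 55 and 10 reads (0.585% and 0.119%) in D. melanogaster.

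Of the growth and metabolism arms, 10 were tested and 0 called, with a median log2 difference of -0.69. With arms without reads set at their floor the median was -0.20. bantam-3p, which drives tissue growth and blocks cell death, took 0.985% in D. yakuba library 2, against 1.07% and 0.475% in D. melanogaster. miR-305-5p, which acts on Notch and insulin signalling in intestinal stem cells, took 1.2%, against 2.33% and 0.403%. miR-275-3p, from the same cluster, took 1.62%, against 4.22% and 2.06%. The values of bantam-3p and miR-305-5p fell between the D. melanogaster samples, and that of miR-275-3p below both.

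The epithelial and disc list had 10 tested arms and 0 calls, with a median of -0.21. The list, which also holds miR-8-3p, took 54.9% of reads in D. yakuba library 2, against 57% and 62.3% in D. melanogaster. The nervous system and sense organ list had 8 tested arms and 0 calls, with a median of 0.36. miR-124-3p, the pan-neuronal miRNA, took 0.352%, against 0.372% and 0.368% in D. melanogaster, and miR-276a-3p, known from olfactory memory, 2.39%, against 0.893% and 2.02%. For miR-124-3p the ratios to both samples were 0.945 and 0.956, with intervals of 0.289 to 2.42 and 0.29 to 2.48.

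The K box and Brd box list holds miRNAs known to act on Notch target genes. It counts both arms of each, so not every arm has a seed that pairs with such a box. The list had 10 tested arms and 0 calls, with a median of 0.14. miR-13b-3p took 0.633%, against 0.393% and 0.57% in D. melanogaster. miR-2a-3p and miR-2b-3p share reads with each other, so their values are uncertain. They took 0.352% and 0.281% in D. yakuba library 2, against 0.261% and 0.564% in D. melanogaster sample 1 and 0.261% and 0.309% in sample 2. The digestive tract list had 5 tested arms and 0 calls, with a median of -0.66, and -0.40 at the floor. miR-281-5p, its most read arm besides the mir-275 and mir-305 arms, took 0.563%, against 2.39% and 0.403% in D. melanogaster. The Hox complex list had 2 tested arms and 0 calls, with a median of -0.10. Of the mir-310 and mir-92 family, 2 arms were tested, miR-92a-3p and miR-92b-3p above, with a median of 1.72 and 0 calls. miR-312-3p of that family had 1 read, against 6 and 3 in D. melanogaster.

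Markers of the tissues in a whole animal were checked. Those of muscle (miR-1-3p), nervous system (miR-124-3p), sense organs (miR-263a-5p) and digestive tract (miR-281-5p) were present in all 4 libraries. miR-263b-5p, of the other sense organ miRNA checked, had 1 and 3 reads in D. yakuba libraries 2 and 1 and 0 and 0 in D. melanogaster. miR-133, the other muscle miRNA, had 2 reads in D. yakuba library 1 and 0 in the other libraries. The early embryo cluster had 1 read in D. yakuba library 2 and 24 in library 1, against 16 and 3 in D. melanogaster. None of the 20 testis-rich miRNAs had a hairpin listed for both species. On D. melanogaster hairpins, arms of that list had 0 reads in D. yakuba library 2 and 18 in library 1, against 33 and 13 in D. melanogaster, over 10 arms with a read in any of the 4 libraries. In whole animals, fewer cells of a type and less miRNA per cell cannot be told apart.

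The technical libraries of the 1 D. yakuba RNA differed from each other in their most abundant arms. miR-1-3p took 47.4% in library 1 and 9.49% in library 2, a ratio of 4.99 (interval 4.21 to 5.96). miR-8-3p took 3.0% in library 1 and 29.5% in library 2, a ratio of 0.102 (0.0898 to 0.115). miR-263a-5p had a ratio of 0.193 (0.165 to 0.225), miR-282-5p of 0.369 (0.276 to 0.501) and miR-10-3p of 3.42 (2.2 to 5.62). let-7-5p had 12 reads in library 1 and 8 in library 2, a ratio of 0.0982 (0.0369 to 0.277), and bantam-3p had 17 and 14 reads, a ratio of 0.0795 (0.0369 to 0.174). The libraries differ in both index and pool, whose parts cannot be told apart here.

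Of 39 tested arms with reads in both D. yakuba libraries, the counting interval of the ratio excluded 1 for 18 arms (46.2%), and 11 differed by more than 4-fold. Between the D. melanogaster samples, which carried the same index in different pools, it excluded 1 for 28 of 47 arms (59.6%), and 14 differed by more than 4-fold. The number of arms whose interval excludes 1 depends on depth, which was lower for D. yakuba library 2. miR-8-3p was 7.01 times as high in D. melanogaster sample 2 as in sample 1 (6.34 to 7.77) and miR-1-3p 7.68 times (6.25 to 9.53).

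A measure of the distance between libraries is the percent of reads that would have to change arm for their shares to be equal. It was 15.5% between D. yakuba library 2 and D. melanogaster sample 2 and 43% between D. yakuba library 2 and sample 1. Between D. yakuba library 1 and D. melanogaster samples 1 and 2 it was 51.3% and 54.8%. It was 51.3% between the D. yakuba libraries and 44.8% between the D. melanogaster samples. Of these pairs, the closest was one of different species that shared the index, while the other pairs that shared it lay at 43% and 44.8%. The correlation of the log2 levels over 44 arms, which share depth and library preparation within a library, was 0.874 for the closest pair. It was 0.768 between the D. yakuba libraries and 0.77 between the D. melanogaster samples.

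**Figure D3:**
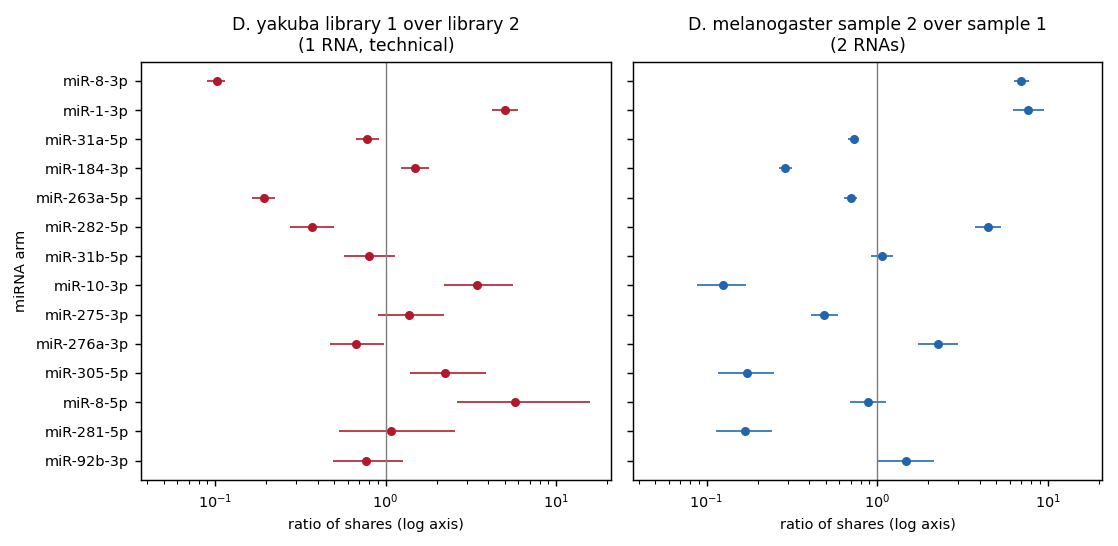
Ratio of shares (log axis) of the 14 arms with the highest mean share, between D. yakuba libraries 1 and 2 of 1 RNA (left) and between D. melanogaster samples 2 and 1 (right). Bars are exact 95% intervals for counting error. miR-8-3p lies at 0.102 on the left and at 7.01 on the right.

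Both D. yakuba libraries lay on the same side of both D. melanogaster samples for 20 of the 49 tested arms. They lay above both for 6 arms (12.2%), miR-11-3p, miR-315-5p, miR-92b-3p, miR-7-5p, miR-1-3p and miR-9a-5p. Of the 6, only miR-92b-3p had counting intervals above 1 to both D. melanogaster samples in library 2. The ratio of miR-9a-5p to sample 2 was 1.36 (0.703 to 2.46) in library 2 and 1.03 (0.763 to 1.41) in library 1. Both D. yakuba libraries lay below both samples for 14 arms (28.6%), among them miR-31a-5p, miR-31b-5p, miR-79-3p and miR-305-3p. Only miR-31a-5p and miR-31b-5p of these 14 had counting intervals below 1 to both D. melanogaster samples in library 2. Against sample 2, the library 2 ratio was 0.312 (0.00751 to 1.96) for miR-79-3p and 0.697 (0.18 to 1.95) for miR-305-3p. These orders are of shares of library totals. With TMM scaling, the index-matched log2 differences of miR-31a-5p and miR-31b-5p were -0.042 and -0.138. Of the 14, 4 had 0 reads in D. yakuba library 2, where a count of 0 allows 0.211%, so whether that library lay below both samples is not known for them. For let-7-5p and miR-124-3p, also among the 14, D. yakuba library 2 lay within counting error of the nearest D. melanogaster share, at 0.563% against 0.564% and at 0.352% against 0.368%. miR-315-5p, for example, took 0.211% and 0.193% in D. yakuba libraries 2 and 1, against 0.0532% and 0.0475% in D. melanogaster. miR-79-3p took 0.0703% and 0.0184%, against 1.18% and 0.225%. For 8 arms the D. yakuba libraries lay on opposite sides of both D. melanogaster samples, among them miR-263a-5p, miR-92a-3p and miR-13b-3p.

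With both D. yakuba libraries summed as 1 sample, index and species changed together in part, since library 1 made up most of the sum. Of 51 tested arms, 0 (0%) passed the edgeR quasi-likelihood test with Benjamini-Hochberg adjustment, and 5 had an unadjusted p under 0.05. DESeq2 called 0, with 4 at an unadjusted p under 0.05. The arms with the smallest p were miR-iab-4-5p, a Hox complex miRNA known to act on Ultrabithorax, at 3.97 ± 1.70 (adjusted p = 0.393), miR-1-3p at 3.42 ± 1.48 (0.393) and miR-79-3p at -4.47 ± 1.96 (0.393). miR-282-3p, at -4.36 ± 1.99 (0.393), and miR-283-5p, at 2.98 ± 1.49 (0.491), were picked out after their values were seen.

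The counts behind these arms came largely from library 1. miR-iab-4-5p had 0 reads in D. yakuba library 2 and 31 in library 1, against 2 and 0 reads in D. melanogaster. miR-283-5p had 2 and 139 reads in D. yakuba libraries 2 and 1, against 4 and 12 in D. melanogaster. miR-282-3p had 2 reads in each D. yakuba library, against 57 and 31 reads in D. melanogaster. Without D. yakuba library 1, the log2 difference of miR-1-3p was 1.30, that of miR-283-5p 1.00 and that of miR-282-3p -1.25. The list medians moved with library 1 as well. The ecdysone-linked median was -2.33 over 9 tested arms, beside -0.40 for all 51 tested arms, while the index-matched value was 0.04.

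Library 1 of D. yakuba and D. melanogaster sample 2 were run in the same pool, SDY3, with different indices. A fit with the pool as a term, in which the species difference rests on that pair and the spread on 1 residual degree of freedom, called 9 of 44 arms (20.5%), 6 higher and 3 lower in D. yakuba. miR-305-5p (2.92 ± 0.30, adjusted p = 7.2e-11), miR-7-5p (2.99 ± 0.38, 9.88e-09) and miR-10-3p (3.11 ± 0.53, 7.95e-06) were higher by the edgeR test, as were miR-33-5p, miR-8-5p and miR-315-5p. miR-282-5p (-1.96 ± 0.49, adjusted p = 0.00219), miR-282-3p (-5.19 ± 1.82, 0.0328) and miR-14-5p (1.92e-05) were lower by that test. miR-14-5p had 0 reads in D. yakuba library 1, against 9 in D. melanogaster sample 2, and at the floor of 3 counts its share was at least 7.73-fold lower. In the index-matched library it had 3 reads (0.211%), against 10 and 9 reads (0.106% and 0.107%) in D. melanogaster. Among the higher arms, miR-8-5p had index-matched ratios of 0.254 (0.0919 to 0.566) to D. melanogaster sample 1 and 0.289 (0.104 to 0.647) to sample 2, below 1 on 6 D. yakuba reads. For miR-33-5p, with 3 D. yakuba reads, these ratios were 0.207 (0.0419 to 0.622) and 0.808 (0.155 to 2.69). Apart from miR-7-5p, miR-10-3p, miR-305-5p, miR-8-5p, miR-315-5p and miR-282-5p, these were picked out after their values were seen. For miR-305-5p the pool-matched ratio of shares was 6.64 (interval 4.7 to 9.68), while the index-matched ratios were 0.513 (0.294 to 0.841) to D. melanogaster sample 1 and 2.96 (1.55 to 5.45) to sample 2. For miR-10-3p the pool-matched ratio was 9.89 (7.24 to 13.9), and the index-matched ratios were 0.357 (0.216 to 0.56) and 2.89 (1.6 to 5.05). The direction of miR-305-5p and miR-10-3p thus differed between the D. melanogaster samples in the index-matched library. Index and species cannot be told apart within the pool. The D. melanogaster larvae also helped to set the pool term of that fit.

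Arm choice was tested as the log2 ratio of 5p to 3p reads (pseudocount 0.5), with the D. yakuba libraries summed. Of 20 hairpins with at least 20 reads in every sample, 0 (0%) passed limma's test with Benjamini-Hochberg adjustment, and 3 had an unadjusted p under 0.05. mir-305 gave 81% and 96.5% of its reads from the 5p arm in D. yakuba libraries 2 and 1, against 60.3% and 50% in D. melanogaster, a log2 difference of 4.25 ± 1.76 (limma adjusted p = 0.18). D. yakuba library 2 rests here on 17 reads of the 5p arm and 4 of the 3p arm, and both D. yakuba libraries come from 1 RNA. mir-10 gave 9.09% and 0.191% in D. yakuba libraries 2 and 1, against 11.7% and 2.38% in D. melanogaster (-4.04 ± 1.76, adjusted p = 0.18). Its value without D. yakuba library 1 was 0.81. mir-1 had no read of its 5p arm in any of the 4 libraries, so its fitted value follows from the pseudocount and its 3p reads.

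mir-8 showed the widest range of arm choice between the technical libraries of these hairpins with 20 reads in every sample. Its 5p arm held 1.41% of the hairpin's reads in D. yakuba library 2 and 44.7% in library 1, against 26% and 4.22% in D. melanogaster samples 1 and 2. mir-282 gave 96.5% and 99.4% from the 5p arm in D. yakuba, against 74.6% and 95.6% in D. melanogaster.

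The 5′ end, which sets the seed, was the same in nearly all reads. Over 12 arms with at least 50 reads in every sample, 96.4% to 100% of reads began at the usual base in each of the 4 libraries. With the logit of that share (natural log, pseudocount 0.5), 0 of 12 arms (0%) passed limma's test, and 1 had an unadjusted p under 0.05. That arm, miR-282-5p, began at the usual base in 96.4% and 99% of reads in D. yakuba, against 100% and 100% in D. melanogaster. Its adjusted p by limma was 0.573.

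The 3′ ends differed, and the difference lay between libraries more than between species. miR-276a-3p reads at least 2 nt shorter than the 22 nt usual in D. melanogaster made up 0% in D. yakuba library 2 (0 of 34 reads, interval 0 to 10.3%) and 66.4% in library 1 (61.1 to 71.3%), against 1.19% and 1.76% in D. melanogaster. miR-305-5p had 17.6% and 70.8% of such reads in D. yakuba libraries 2 and 1, against 2.74% and 23.5% in D. melanogaster. miR-31a-5p had 23.4% and 53.1%, against 9.44% and 22%, and miR-31b-5p 47.5% and 79.8%, against 24% and 45.3%. In each of these 4 arms D. yakuba library 2 lay close to D. melanogaster sample 2, and library 1 stood above all other libraries.

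Of 15 arms with at least 10 reads in each of the 4 libraries, 4 had an interval in D. yakuba library 1 above those of the 3 other libraries, the 4 arms just described. In 0 of the 15 did the interval of D. yakuba library 2 lie above both D. melanogaster intervals. miR-8-3p, by contrast, had 8.81% and 11.8% of reads at least 2 nt short in D. yakuba libraries 2 and 1, against 4.05% and 7.31% in D. melanogaster, and miR-184-3p 1.71% and 1.02%, against 4.01% and 3.29%. The shorter D. yakuba sequences of miR-276a-3p and miR-305-5p shown above were the most frequent lengths in library 1 and in none of the other 3 libraries. The 21 nt length of miR-31b-5p was the most frequent one in D. yakuba libraries 2 and 1 (42.5% and 73.4%) and in D. melanogaster sample 2 (44%), and 23 nt (49.1%) in sample 1.

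**Figure D4:**
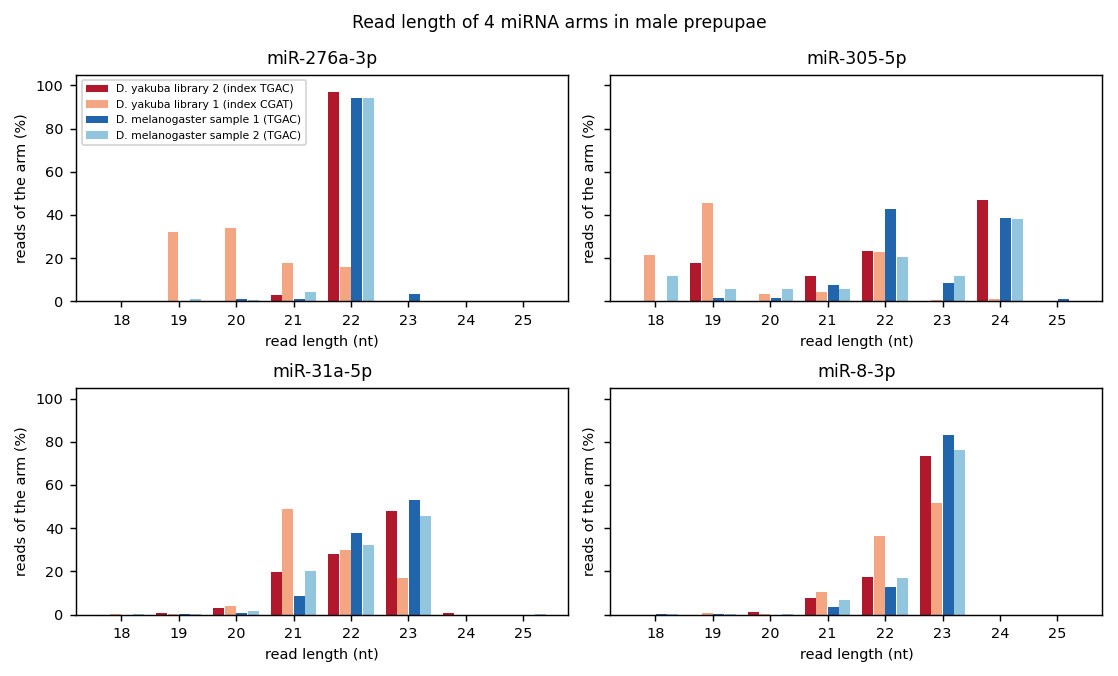
Read length (nt) of miR-276a-3p, miR-305-5p, miR-31a-5p and miR-8-3p as percent of the reads of each arm in D. yakuba libraries 2 and 1 and D. melanogaster samples 1 and 2. Bars are single libraries. The short forms of miR-276a-3p stand in D. yakuba library 1, with 66.4% of reads at least 2 nt short, against 0% in D. yakuba library 2.

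Letters added to the 3′ end that the hairpin does not encode were listed apart from the counts above. Reads with such an addition made up 2.74% in D. yakuba library 2 (interval 1.96 to 3.71%) and 1.86% in library 1 (1.68 to 2.04%), against 1.75% (1.49 to 2.03%) and 2.45% (2.14 to 2.8%) in D. melanogaster. These ranges overlapped. Of the additions, those of U alone made up 57.5% and 66.9% in D. yakuba, against 40.7% and 42.9% in D. melanogaster. Those of A alone made up 35% and 31.6% in D. yakuba, against 46.7% and 53.3% in D. melanogaster. The D. yakuba libraries held 40 and 411 such reads, and the mix of arms differs between libraries. In library 1, miR-1-3p alone gave 311 of the 411 additions and 240 of the 275 U-only ones. It gave 6 of 40 additions in library 2, against 11 of 167 and 48 of 212 in D. melanogaster. The U-only share of library 1 thus rests largely on that arm. miR-1-3p, whose additions were mostly U, had 6 of 6 U-only additions in D. yakuba library 2 and 240 of 311 in library 1, against 10 of 11 and 30 of 48 in D. melanogaster. miR-8-3p had 12 of 21 and 26 of 36 in D. yakuba, against 8 of 19 and 44 of 107 in D. melanogaster. miR-31a-5p had 5 of 7 and 6 of 14 in D. yakuba, against 46 of 68 and 17 of 36 in D. melanogaster. For miR-8-3p the U-only share was higher in both D. yakuba libraries than in both D. melanogaster samples, on few reads. For miR-1-3p and miR-31a-5p the values of both species overlapped. miR-184-3p had 0 U-only additions in each library.

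**Figure D5:**
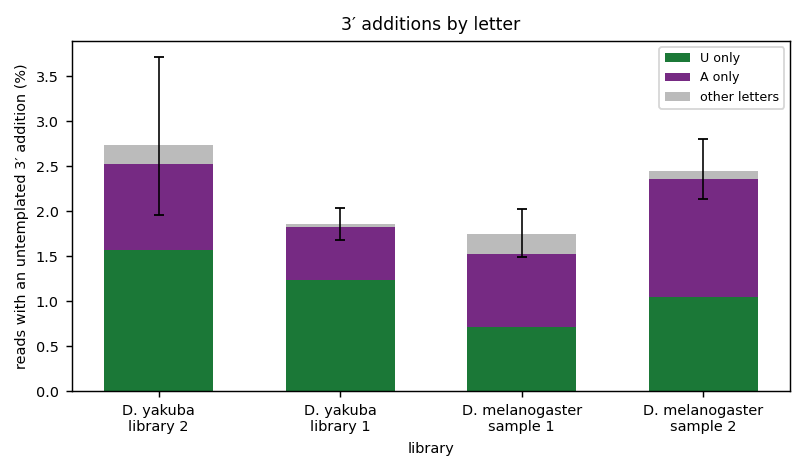
Percent of reads with an untemplated 3′ addition in D. yakuba libraries 2 and 1 and D. melanogaster samples 1 and 2, split into additions of U only, A only and other letters. Bars start at 0 and whiskers are exact 95% intervals of the total. The totals lie at 2.74% and 1.86% in D. yakuba, against 1.75% and 2.45% in D. melanogaster.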

How the data were processed

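Small RNAs of 16 to 28 nt were ligated to indexed adapters and sequenced, per the labels' protocols. The authors aligned them with Bowtie 0.12.5, per the submitters' processing notes, to the hairpins of miRBase release 15, per the file headers. The deposited alignment texts give whole-number counts of each read sequence per library. The deposited summary table holds expected counts, rounded here to whole numbers where used (784 of 786 compared cells, 99.75%, lay within 1 read of the sums). Its 8 columns of libraries of another series were not used. The genome build of the authors' loci is not given in the sources used here.

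Counts were summed per arm on hairpins of the library's own species and then on D. melanogaster hairpins, and a read of several miRNAs was divided evenly. Additions were left out of these counts. Group means over 5 libraries (D. yakuba as 1 sample, which is assumed to vary like the others, plus 2 D. melanogaster prepupal and 2 larval samples) left 2 residual degrees of freedom. Fits used TMM, filterByExpr and the quasi-likelihood test of edgeR 4.0.16, with limma 3.58.1 for arm choice and 5′ ends and DESeq2 1.42.0 as an alternative (R 4.3.3). The SE of an edgeR difference is its size divided by the square root of its F value, and the fitted intervals use that SE. It need not match the p-value of every arm. The fits were tested on simulated data, where recovery of large changes was required only at a spread smaller than that of these samples. The simulation therefore does not show what these samples could detect. Nothing in the labels says that the D. melanogaster samples came from separate cultures, so the spread behind the p-values may be technical.

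The named arms are any called ones (12 at most per direction), the 10 with the smallest index-matched p, the 10 with the highest mean share, at most 4 of each list by share and a short fixed set that includes let-7-5p, miR-1-3p and miR-14-3p. The members and lists were chosen with earlier results of these data known. Other scalings, filters, hairpins, counts and left-out libraries were tried as alternatives.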

Additional observations from a re-analysis of the deposited data

Results flagged for a closer look

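D. yakuba reads were also listed on D. melanogaster hairpins that have no listed D. yakuba hairpin, which the comparison did not use. They made up 5.2% of the reads of D. yakuba library 2 on D. melanogaster hairpins and 3.42% of those of library 1, against 11.5% and 6.62% in D. melanogaster. The 78 and 768 D. yakuba reads are above the 3 counts that a count of 0 allows. miR-995-3p had 17 reads in D. yakuba library 2 and 205 in library 1 (1.13% and 0.912%), the most of these arms in library 1, against 410 and 136 reads (3.86% and 1.51%) in D. melanogaster. miR-999-3p had 24 and 6 reads (1.6% and 0.0267%), the most in library 2, against 5 and 166 reads (0.047% and 1.84%) in D. melanogaster. miR-252-5p, miR-970-3p, miR-12-5p and miR-375-3p also had reads in all 4 libraries. No group had the 4 samples needed to look for a sample far from the others.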

How the results depend on the processing

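The index-matched count of 0 called arms was 0 in each of its 16 alternatives, which included RLE, upper-quartile and total scaling, DESeq2, other filters, the prepupal libraries alone, D. melanogaster hairpins, summary counts and each D. melanogaster library left out. Arms at an unadjusted p under 0.05 numbered 0 to 5. The both-library count of 0 was 0 in 19 of 20 alternatives and 9 with the pool as a term. One of these alternatives, the technical libraries as separate samples, was chosen after seeing the data. Leaving out 1 library gave 0 calls each time in both comparisons. The arm choice count of 0 became 1 (mir-1, which has no 5p reads in prepupae) with a pseudocount of 1, and ranged from 0 to 1 when 1 library was left out, with 1 without D. melanogaster sample 2. The count of 0 for 5′ ends was 0 in all alternatives run.

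Among the 10 named index-matched arms, miR-7-5p ranged from -0.032 to 2.49 when 1 library was left out, with the negative value without D. melanogaster sample 2. miR-14-3p ranged from -4.30 to 2.03, with the positive value without sample 1, and was 1.66 with the replicate block. miR-1-3p ranged from -0.30, without sample 1, to 2.67, and was -0.014 without a filter. Arm choice of mir-10 ranged from -4.98 to 0.81, the positive value without D. yakuba library 1. Causes of these were not tested, beyond the libraries left out.

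Label numbers did not pair the species. Deviations of same-numbered libraries had an r of 0.0549 over 44 arms between D. yakuba and D. melanogaster prepupae, -0.181 between D. yakuba prepupae and D. melanogaster larvae, and 0.636 between D. melanogaster prepupae and larvae, where the number goes with the pool (SDY1 or SDY3). With the number as a replicate block, 0 arms were called in either comparison, with 5 and 9 at an unadjusted p under 0.05.

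The limits are 1 D. yakuba RNA, 1422 reads in the index-matched library, 2 residual degrees of freedom, and an index and pool that change together between the D. yakuba libraries.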
